A study of Drosophila melanogaster with 12 samples.

Results

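Heads of ADAR hypomorph flies were compared with heads of WT flies, both kept at 29°C. The RNA was read by 3' RNA-seq, and each strain had 3 libraries. These 6 libraries are all those of the warm temperature among the 12 of the series, which also holds 3 libraries of ADAR hypomorph flies and 3 of WT flies at 18°C, and they were chosen by strain and temperature alone. In the hypomorph strain a transposable element lies within an intron of Adar, and some enzyme remains, in a smaller amount and with less activity than in WT. The methods of the study name the strain Adar 5G1, but its discussion sets that allele apart from the hypomorph, so the allele name is uncertain. The WT flies are described as wild type, with no further strain name for these libraries. All flies were 3 to 6 days old after eclosion, and their sex is not stated. Nothing in the descriptions says that the strains share a genetic background, so effects of Adar and of other differences between the strains cannot be told apart. In this method the reads come from the end of the transcript that carries the poly(A) tail, and they count transcripts with little dependence on length.

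ADAR is the enzyme that deaminates adenosine to inosine in double-stranded RNA, and the translation machinery reads inosine as guanosine. In Drosophila it acts mainly in neurons, where many of its best known substrates encode ion channels, neurotransmitter receptors and proteins of synaptic vesicle release. Flies that lack the enzyme move poorly and their brains degenerate with age. A fly head holds the compound eyes and the brain, and beside them glia, muscle, cuticle and a layer of fat body that makes yolk proteins, immune peptides and enzymes of detoxification.

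Total counts were 7348323 to 8806472 (median 7646695) in ADAR hypomorph flies and 6750281 to 8725136 (median 7901058) in WT flies. Below, the values of each gene are normalized counts, scaled to an effective library of 6952688 counts, the mean over libraries, in the order library with no replicate number, replicate 2, replicate 3. WT replicate 2 stood apart from the rest, because 65 of the 9553 genes tested were over 4-fold higher in it than in both other WT libraries, against 12 genes for the WT library with no number and 2 for WT replicate 3. Of these 65 genes, 15 are on the list of digestive enzymes and 8 on that of seminal and other male reproductive proteins, which does not include 4 further male genes among the 65 (EbpII, Dup99B, Met75Ca and Met75Cb). Results that rest on this library are given with and without it. Markers of neurons, photoreceptors, glia, fat body, muscle and hemocytes were all detected in both groups, but the muscle markers TpnC4 and fln had too few counts to be tested. None of the 6 ovary markers had enough counts to be tested, and nos was at 0 in all 6 libraries. The summed ovary level was 0.934, 0.808 and 9.65 normalized counts in ADAR hypomorph flies, against 63.1, 24.8 and 1.67 in WT flies. Of these, Vm26Aa had 55.5, 17.2 and 0 in WT flies. The summed level of 10 gut markers was 728, 4039 and 789 normalized counts in ADAR hypomorph flies, against 1103, 12741 and 987 in WT flies, and 3 of the 10 were called lower (LysE, Mal-A1 and Amy-p). Without WT replicate 2 only Amy-p stayed lower, and LysB and LysD were called higher. The summed level of the 4 markers of the male reproductive tract found in the table was 2.8, 22.6 and 1.93 normalized counts in ADAR hypomorph flies, against 29.4, 235 and 5.02 in WT flies. The gut and male tract sums were both highest in replicate 2 of each strain.

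Between the strains, 1818 of the 9553 genes (19%) passed an adjusted p under 0.05 in edgeR's quasi-likelihood test and are termed called, with 842 (8.81%) above WT and 976 (10.2%) below WT in the hypomorph. Most of these differences were small. Only 162 genes rose and 203 fell by more than 2-fold, the other 1453 changed by less, and the median size of the log2 fold change among the called genes was 0.55. The libraries of the strains did not overlap for 1791 of the 1818 genes, where 35.9% of all genes tested did not overlap. The median log2 fold change of all genes tested was -0.0029. Fold changes are given as ADAR hypomorph over WT with their standard error, so that a positive value is higher in the hypomorph. By the criterion of the study (a log2 fold change beyond 1 and a p-value under 0.05, here unadjusted) 451 genes (4.72%) differed, and 365 (3.82%) did so with an adjusted p. The 451 became 829 when all genes with at least 1 count were tested and 205 when every library had to hold at least 10 counts. Without WT replicate 2, 1410 genes were called, 655 (6.77%) higher and 755 (7.8%) lower among the 9675 genes that then entered the test. Of the 1818 calls 1354 were kept, 464 were lost and 56 genes were newly called. Among the 40 lists of genes by function or family, 392 of 1423 tested members were called.

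**Figure D1:**
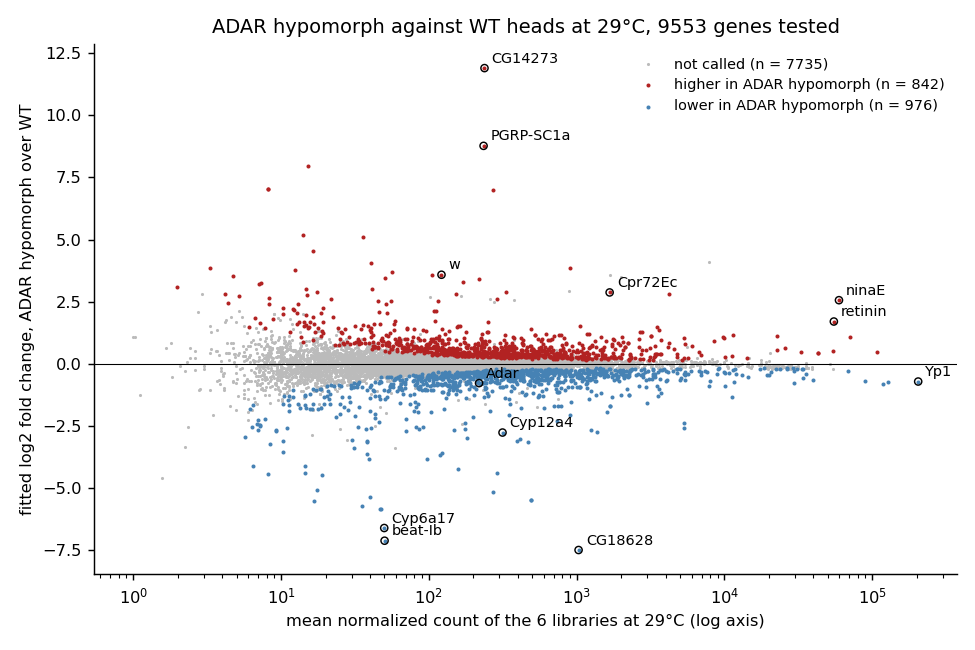
Each point is 1 of the 9553 genes tested, with the mean normalized count of the 6 libraries at 29°C on the x axis (log axis) and the fitted log2 fold change of ADAR hypomorph over WT flies on the y axis. Red points are the 842 genes called higher and blue points the 976 called lower at an adjusted p under 0.05, and among the abundant genes ninaE and retinin lie far above 0 while Yp1 lies below it.

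**Figure D2:**
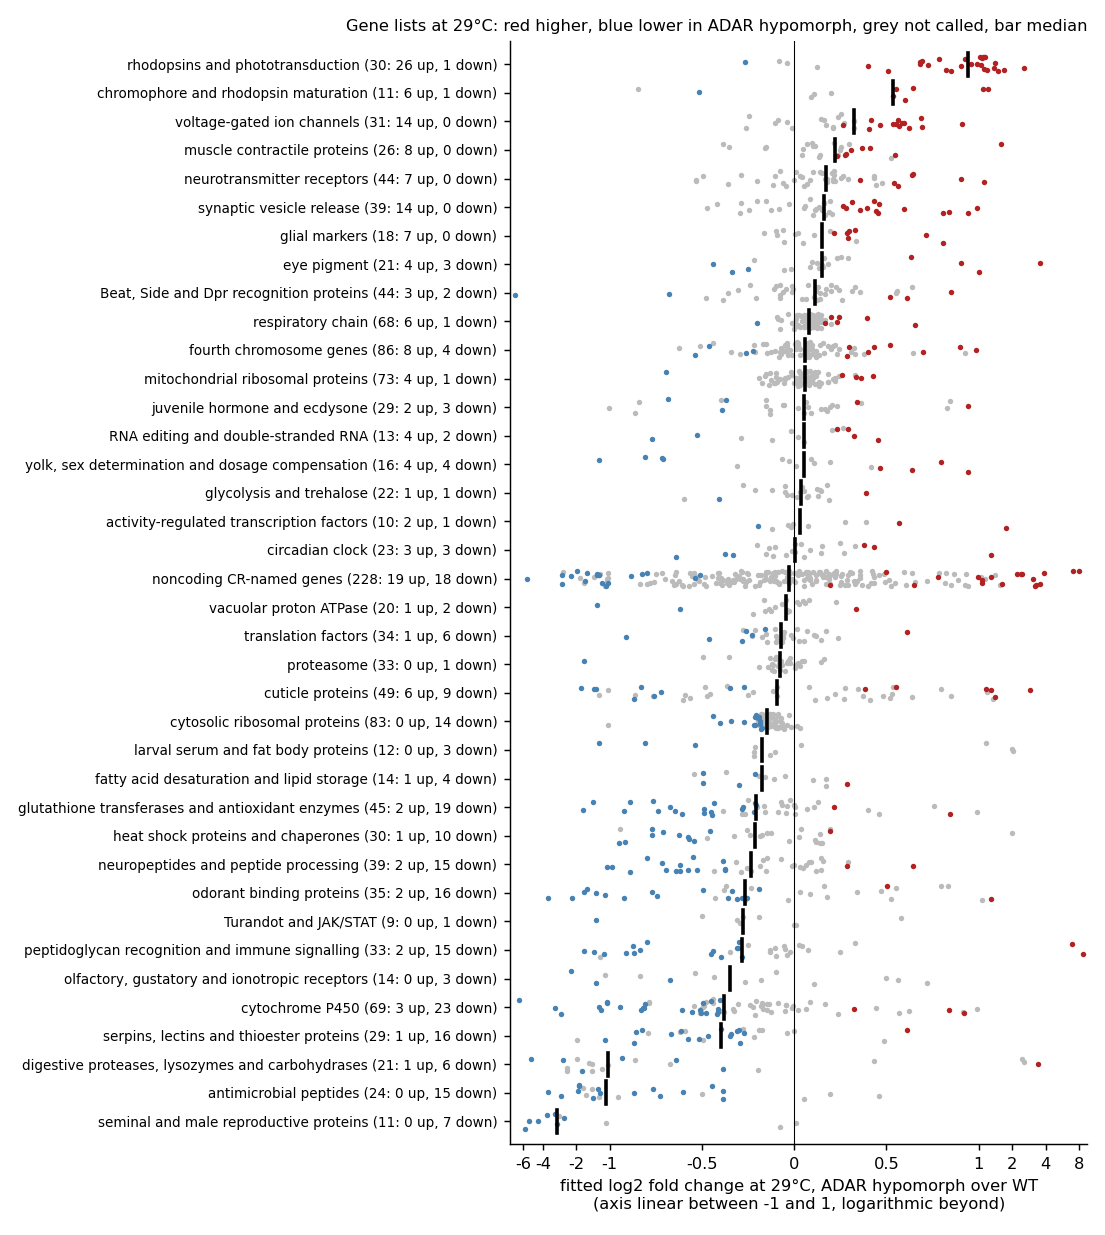
Each row is a list of genes with at least 9 tested members, ordered by its median (black bar), and each point is a member's fitted log2 fold change of ADAR hypomorph over WT flies at 29°C (axis linear between -1 and 1, logarithmic beyond). Red members were called higher, blue ones lower and grey ones were not called. The row of rhodopsins and phototransduction, with a median of 0.94, lies at the top, and antimicrobial peptides, digestive proteins and seminal proteins lie at the bottom.

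Adar, on the X chromosome, had 171, 163 and 151 normalized counts in ADAR hypomorph flies, against 259, 275 and 294 in WT flies (log2 fold change -0.77 ± 0.14, edgeR adjusted p = 0.000859). The 3 hypomorph libraries all lay below the 3 WT libraries. Of 13 genes of RNA editing and double-stranded RNA, 4 were called higher (30.8%, against 8.81% of all genes tested) and 2 lower (15.4%, against 10.2%). Their median was 0.05. Dcr-2, the Dicer of the small interfering RNA pathway, fell to 106, 100.2 and 118 normalized counts in ADAR hypomorph flies, against 168, 142 and 157 in WT flies (log2 fold change -0.53 ± 0.13, edgeR adjusted p = 0.00836). loqs, a protein that binds double-stranded RNA, rose to 618, 655 and 658 normalized counts in ADAR hypomorph flies, against 424, 492 and 494 in WT flies (log2 fold change 0.45 ± 0.11, edgeR adjusted p = 0.00693). stau, which binds double-stranded RNA in mRNA transport, had 939.5, 962 and 905 normalized counts in ADAR hypomorph flies, against 739, 750.2 and 756 in WT flies (log2 fold change 0.32 ± 0.06, edgeR adjusted p = 0.00137). For these 3 genes too the strains did not overlap.

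The eye colour gene w, an ABC transporter that carries pigment precursors into pigment granules, had 227, 242 and 207 normalized counts in ADAR hypomorph flies, against 18.5, 17.2 and 20.1 in WT flies (log2 fold change 3.59 ± 0.16, edgeR adjusted p = 3.89e-10). It lies on the X chromosome like Adar, 120 tested genes away. The X chromosome held the largest share of called genes among the major arms, 24.2% of 1569 tested genes (5.74% called and changed by over 2-fold), while 2R had 20.1%, 2L 18.1%, 3R 17.8% and 3L 16.2%. No such share was seen next to Adar itself. Of its 40 nearest tested neighbours, 20 on each side, 3 were called (7.5%), 1 higher and 2 lower. Of the 86 tested genes of the fourth chromosome, 8 rose (9.3%, against 8.81% of all genes tested) and 4 fell (4.65%, against 10.2%). mav, a ligand of the TGF-beta family, rose there to 327, 363 and 339.7 normalized counts in ADAR hypomorph flies, against 206, 207 and 221 in WT flies (log2 fold change 0.70 ± 0.10, edgeR adjusted p = 0.000106). Ekar, a glutamate receptor subunit of the kainate type, rose to 139, 138 and 138 normalized counts in ADAR hypomorph flies, against 55.5, 80.2 and 72.8 in WT flies (log2 fold change 0.99 ± 0.15, edgeR adjusted p = 0.000224). The 8 rises became 5 without the hypomorph or the WT library with no number, and the 4 falls became 2 without any of 4 libraries (hypomorph library with no number or replicate 3, WT library with no number or replicate 2).

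Several genes were nearly silent in one strain. CG14273 had 421, 428 and 579 normalized counts in ADAR hypomorph flies, against 0, 0 and 0 in WT flies, which is at least 165-fold higher in ADAR hypomorph flies against a floor of 3 counts per library. At 18°C this gene was below 6 normalized counts in every library of both strains. PGRP-SC1a, which encodes an amidase that degrades bacterial peptidoglycan, had 396, 483 and 527 normalized counts in ADAR hypomorph flies, against 1.09, 1.91 and 0 in WT flies (494-fold, 95% counting interval 169 to 2397). Its neighbour PGRP-SC1b, nearly identical in sequence, had 458, 550.4 and 605 normalized counts in ADAR hypomorph flies, against 4.35, 7.64 and 0.837 in WT flies (log2 fold change 6.98 ± 0.36, edgeR adjusted p = 1.7e-09), and the counting may have split reads between the pair. l(2)03659, a predicted ABC transporter, had 70.0, 73.6 and 65.6 normalized counts in ADAR hypomorph flies, against 0, 1.91 and 3.35 in WT flies (log2 fold change 5.12 ± 0.46, edgeR adjusted p = 8.48e-07). CG33655 had 28, 30.7 and 36.7 normalized counts in ADAR hypomorph flies, against 0, 2.86 and 0.837 in WT flies (log2 fold change 4.52 ± 0.58, edgeR adjusted p = 7.01e-05). CG3397 had 15.9, 44.5 and 22.2 normalized counts in ADAR hypomorph flies, against 2.18, 0 and 0 in WT flies (44.9-fold, 95% counting interval 12.1 to 376). The noncoding genes CR45625 and CR45352 and the microRNA gene mir-4957 had no counts in any WT library, which puts ADAR hypomorph flies higher by at least 10.6-fold for CR45625, 5.64-fold for CR45352 and 5.67-fold for mir-4957.

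In the other direction, beat-Ib, an immunoglobulin-domain protein of a family that guides axons, had 0.934, 0 and 0.965 normalized counts in ADAR hypomorph flies, against 104, 86.9 and 108 in WT flies. It was 167-fold higher in WT flies (95% counting interval 45.9 to 1386). Cyp6a17, a cytochrome P450 whose loss is known to alter temperature preference in flies, had 0, 2.42 and 0 normalized counts in ADAR hypomorph flies, against 122, 77.3 and 97.9 in WT flies. WT flies were 109-fold higher (95% counting interval 37.1 to 533). The noncoding gene CR42767 was 56.1-fold higher in WT flies (95% counting interval 15.1 to 469), at 0, 0 and 1.93 normalized counts in ADAR hypomorph flies, against 26.1, 32.4 and 40.2 in WT flies. CG1722 was 37.7-fold higher in WT flies (95% counting interval 12.6 to 186), at 0.934, 0.808 and 0.965 normalized counts in ADAR hypomorph flies, against 41.4, 23.9 and 36.8 in WT flies. CG42392 fell to 2.8, 0.808 and 0.965 normalized counts in ADAR hypomorph flies, against 41.4, 36.3 and 31 in WT flies (log2 fold change -4.48 ± 0.45, edgeR adjusted p = 8.4e-06). The largest fitted falls beyond these belonged to CG18628 and to the seminal or male genes EbpII, Sfp87B, Dup99B, Met75Ca, Met75Cb and Sfp60F, all of them highest in WT replicate 2, and they are described with that library further on. Counting intervals and floors cover counting error only.

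Light enters the fly eye's signalling cascade through rhodopsins, which act through a Gq protein and phospholipase C to open the channels trp and trpl. Arrestins then end the signal. Of 30 tested genes for rhodopsins and phototransduction, 26 rose (8.81% of all genes tested rose) and 1 fell, with a median log2 fold change of 0.94 beside -0.0029 for all genes tested. Without WT replicate 2 the counts were also 26 and 1, of 32 tested. Rh2, the opsin of the ocelli, was the member that fell, to 1138, 1156 and 1072 normalized counts in ADAR hypomorph flies, against 1468, 1318 and 1265 in WT flies (log2 fold change -0.27 ± 0.07, edgeR adjusted p = 0.00971), and it was not called without hypomorph replicate 3 or without the WT library with no number. Gprk1, inaE and Rh7 did not pass the test.

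The major opsin ninaE (Rh1), which the outer photoreceptors of each facet express, had 98866, 109534 and 97425 normalized counts in ADAR hypomorph flies, against 19744, 14785 and 17249.9 in WT flies (log2 fold change 2.56 ± 0.09, edgeR adjusted p = 5.46e-11). The lowest hypomorph library lay far above the highest WT library. Rh4, an ultraviolet opsin of the inner photoreceptors, had 4820.1, 5569.7 and 5086 normalized counts in ADAR hypomorph flies, against 1748, 1786 and 1929 in WT flies (log2 fold change 1.5 ± 0.06, edgeR adjusted p = 2.22e-10). retinin, a protein of the corneal lens, had 90502, 80188 and 81959 normalized counts in ADAR hypomorph flies, against 25782, 25083 and 26659.6 in WT flies (log2 fold change 1.70 ± 0.07, edgeR adjusted p = 7.24e-11). ninaC, a myosin with a kinase domain in the photoreceptor cell, had 7387, 7101 and 7076 normalized counts in ADAR hypomorph flies, against 3373, 3421 and 3577 in WT flies (log2 fold change 1.06 ± 0.05, edgeR adjusted p = 1.19e-09). None of these ranges overlapped, and the rise of ninaE was the largest in the list. The other steps of the cascade, picked by their role after the values were seen, rose as well. Among the opsins of the inner photoreceptors, the log2 fold changes were 1.39 for Rh5, 0.72 for Rh6 and 0.69 for Rh3. For the G protein subunits they were 0.99 for Galphaq, 1.09 for Gbeta76C and 1.17 for Ggamma30A. The phospholipase norpA had 0.96, the channels trp and trpl had 0.93 and 0.85, the protein kinase C inaC had 1.02, and the scaffold protein inaD had 0.82. The arrestins Arr1 and Arr2 had 1.13 and 1.07. All of them were called. The smallest rises of the 26 were those of Calx, a sodium-calcium exchanger, at 0.40 and of rdgB, a phospholipid transfer protein, at 0.51. In bulk heads, a change in the number of cells of a type and a change in the RNA of each such cell cannot be told apart.

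**Figure D3:**
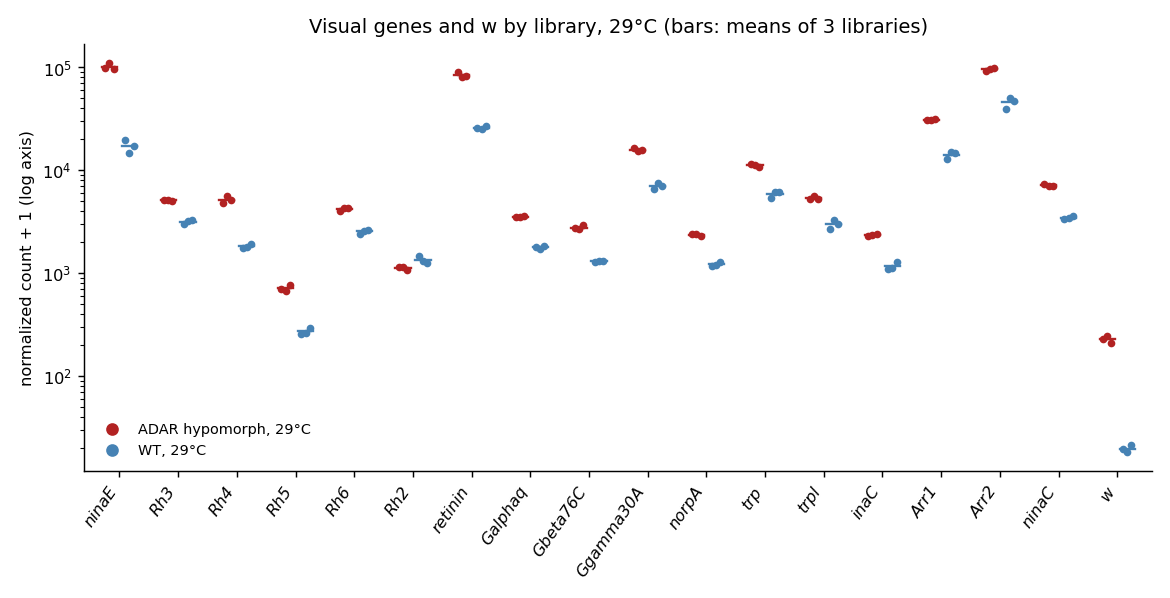
Normalized counts plus 1 (log axis) of 17 visual genes and w in each library at 29°C, ADAR hypomorph in red on the left and WT in blue on the right of each gene, with bars at the means of 3 libraries. The red points lie above the blue ones for every gene shown except Rh2, and the gap is widest for w (log2 fold change 3.59) and ninaE (2.56).

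Of 11 tested genes that make the retinal chromophore or help rhodopsin to fold, 6 rose and 1 fell (median 0.54). Pdh, a retinol dehydrogenase of the pigment cells that regenerates chromophore, had 13000.5, 13794 and 13402 normalized counts in ADAR hypomorph flies, against 6052, 6354 and 6340.4 in WT flies (log2 fold change 1.10 ± 0.05, edgeR adjusted p = 4.52e-10). Xport, which carries trp and Rh1 out of the endoplasmic reticulum, had 1595, 1475 and 1879.9 normalized counts in ADAR hypomorph flies, against 687, 718 and 731 in WT flies (log2 fold change 1.21 ± 0.09, edgeR adjusted p = 1.33e-07). rdhB, another retinol dehydrogenase, had 703, 693 and 732 normalized counts in ADAR hypomorph flies, against 505, 487 and 463 in WT flies (log2 fold change 0.55 ± 0.06, edgeR adjusted p = 1.66e-05). Cnx99A, the calnexin of photoreceptors, had 435, 466 and 413 normalized counts in ADAR hypomorph flies, against 309, 268 and 290.4 in WT flies (log2 fold change 0.60 ± 0.08, edgeR adjusted p = 7.16e-05). The general chaperone Calr (calreticulin) was the member that fell, to 2331, 2445 and 2156 normalized counts in ADAR hypomorph flies, against 3268, 3408 and 3245 in WT flies (log2 fold change -0.52 ± 0.07, edgeR adjusted p = 6.15e-05). The proteins that take up and cleave carotenoids (ninaB, ninaD and santa-maria) did not pass the test.

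Among 21 eye pigment genes, 4 rose (19.0%, against 8.81% of all genes tested) and 3 fell (14.3%, against 10.2%), with a median of 0.15. Beside w, its partner in pteridine transport bw rose to 177, 217 and 146 normalized counts in ADAR hypomorph flies, against 93.6, 90.7 and 86.2 in WT flies (log2 fold change 1.00 ± 0.16, edgeR adjusted p = 0.00033). kar, a transporter-like protein needed for brown pigment, rose to 284, 339 and 312 normalized counts in ADAR hypomorph flies, against 187, 145 and 169 in WT flies (log2 fold change 0.90 ± 0.11, edgeR adjusted p = 2.1e-05). g, a subunit of the AP-3 complex that carries cargo to pigment granules, had 90.6, 103 and 93.6 normalized counts in ADAR hypomorph flies, against 68.6, 58.2 and 58.6 in WT flies (log2 fold change 0.63 ± 0.17, edgeR adjusted p = 0.0136), and was not called without hypomorph replicate 2 or WT replicate 3. ry, the xanthine dehydrogenase of pteridine synthesis, fell to 206, 209 and 207 normalized counts in ADAR hypomorph flies, against 306, 279 and 261 in WT flies (log2 fold change -0.44 ± 0.11, edgeR adjusted p = 0.011). The falls of cl and se, both pteridine enzymes, were small (log2 fold changes -0.25 and -0.34), and neither was called without WT replicate 2. The call of ry was lost in a fit without the WT library with no number, where none of the 3 falls was called.

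Voltage-gated ion channels and their partners, the class that holds many known editing substrates, were called in 1 direction. Of 31 tested, 14 rose (8.81% of all genes tested) and none fell, with a median of 0.32. cac, the calcium channel of the presynaptic active zone, had 716, 677 and 851 normalized counts in ADAR hypomorph flies, against 407, 390.3 and 396 in WT flies (log2 fold change 0.91 ± 0.13, edgeR adjusted p = 8.3e-05). Teh2, an accessory subunit of the sodium channel, had 279, 266 and 267 normalized counts in ADAR hypomorph flies, against 190.4, 182 and 167 in WT flies (log2 fold change 0.59 ± 0.08, edgeR adjusted p = 9.66e-05). qvr (sleepless), a small membrane protein that raises the activity of the Shaker potassium channel, had 446, 415 and 477 normalized counts in ADAR hypomorph flies, against 306, 293 and 323 in WT flies (log2 fold change 0.54 ± 0.09, edgeR adjusted p = 0.000506). Slob, which binds the calcium-activated potassium channel slo, had 517, 429 and 400.5 normalized counts in ADAR hypomorph flies, against 279.7, 299.7 and 294 in WT flies (log2 fold change 0.62 ± 0.11, edgeR adjusted p = 0.000942). The strains did not overlap for any of the 4 genes. Without WT replicate 2, 10 of 31 rose, and 9 rose without hypomorph replicate 3.

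Of 39 genes of transmitter synthesis and vesicle release, 14 rose and none fell (median 0.16), and 11 rose without WT replicate 2. Gad1, which makes GABA, had 791, 748 and 788 normalized counts in ADAR hypomorph flies, against 411, 370.3 and 388 in WT flies (log2 fold change 0.99 ± 0.07, edgeR adjusted p = 5.01e-08). cpx (complexin), which clamps and times vesicle fusion, had 2353, 2547 and 2389 normalized counts in ADAR hypomorph flies, against 1318, 1380.1 and 1380.2 in WT flies (log2 fold change 0.84 ± 0.06, edgeR adjusted p = 1.06e-07). nSyb, the vesicle SNARE of neurons, had 2243, 2206 and 2134 normalized counts in ADAR hypomorph flies, against 1295, 1468 and 1588 in WT flies (log2 fold change 0.60 ± 0.07, edgeR adjusted p = 1.11e-05). Eaat2, a transporter of aspartate and taurine, had 989, 982 and 934 normalized counts in ADAR hypomorph flies, against 741, 673 and 711 in WT flies (log2 fold change 0.45 ± 0.07, edgeR adjusted p = 0.000251). All 4 genes had higher counts in each hypomorph library than in any WT library. Of 44 neurotransmitter receptors 7 rose (15.9%, against 8.81% of all genes tested) and none fell (median 0.17). The serotonin receptor 5-HT2A had 155, 162 and 162 normalized counts in ADAR hypomorph flies, against 74, 68.7 and 78.7 in WT flies (log2 fold change 1.11 ± 0.14, edgeR adjusted p = 2.79e-05). DopEcR, a receptor for dopamine and ecdysone, had 383, 394 and 360.0 normalized counts in ADAR hypomorph flies, against 297, 197 and 235 in WT flies (log2 fold change 0.65 ± 0.13, edgeR adjusted p = 0.00168). Without WT replicate 2 these were the 2 receptors still called, while 3 were called without hypomorph replicate 3 and 4 without the WT library with no number.

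Of 18 glial markers 7 rose (38.9%, against 8.81% of all genes tested) and none fell (median 0.15). Gli (gliotactin), a protein of glial septate junctions, had 90.6, 114 and 84.9 normalized counts in ADAR hypomorph flies, against 54.4, 61.1 and 61.1 in WT flies (log2 fold change 0.71 ± 0.17, edgeR adjusted p = 0.00617). nrv2, a subunit of the sodium pump, had 2273, 2106 and 2129 normalized counts in ADAR hypomorph flies, against 1736, 1773 and 1805 in WT flies (log2 fold change 0.29 ± 0.06, edgeR adjusted p = 0.00401). Only 3 of the 18 were called without WT replicate 2, 3 without hypomorph replicate 2 or without the hypomorph library with no number, and 4 without hypomorph replicate 3. For the lists of channels, synapse, receptors and glia, where none fell, an unadjusted p under 0.05 was reached in the lower direction by 0, 0, 2 and 0 members, and DESeq2 called 0 lower in each. The summed level of 5 neuronal markers was 4122, 3991 and 4104 normalized counts in ADAR hypomorph flies, against 2896, 3066 and 3303 in WT flies, that of 7 photoreceptor markers was 132427, 143537 and 130486 normalized counts in ADAR hypomorph flies, against 35892, 32284 and 35001 in WT flies, and that of 5 glial markers was 4399, 4218 and 4205 normalized counts in ADAR hypomorph flies, against 3552, 3497 and 3699 in WT flies. All 7 photoreceptor markers, 2 of the 5 neuronal and 3 of the 5 glial markers were called higher. The neuronal markers elav, Syt1 and brp were not called (log2 fold changes 0.26, 0.10 and 0.16). Nor were the glial markers repo and moody (0.20 and 0.05). A single gene had the largest part of each sum, nSyb for neurons, ninaE for photoreceptors and nrv2 for glia. The part of cell numbers in the changes of these lists was not tested.

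Of 10 activity-regulated genes, which neurons switch on when they fire, 2 rose and 1 fell. The fall, of cbt, was not called in any fit with 1 library left out, and the rises became 1 without hypomorph replicate 2 or 3, WT replicate 3 or the WT library with no number. Hr38, a nuclear receptor of the NR4A family, had 75.6, 98.6 and 98.4 normalized counts in ADAR hypomorph flies, against 33.7, 25.8 and 22.6 in WT flies (log2 fold change 1.74 ± 0.19, edgeR adjusted p = 8.34e-06). Its lowest hypomorph library was above its highest WT library. Of 44 recognition proteins of the Beat, Side and Dpr families, which sort neurons into synaptic partners, 3 rose and 2 fell (median 0.11). Both shares, 6.82% and 4.55%, were below those of all genes tested (8.81% and 10.2%). Beside beat-Ib, which was nearly silent in ADAR hypomorph flies, its paralog beat-Ic rose to 43.9, 42.8 and 48.3 normalized counts in ADAR hypomorph flies, against 22.9, 23.9 and 27.6 in WT flies (log2 fold change 0.85 ± 0.19, edgeR adjusted p = 0.00475). beat-VII fell to 120.5, 139 and 114 normalized counts in ADAR hypomorph flies, against 213, 178 and 207 in WT flies (log2 fold change -0.68 ± 0.12, edgeR adjusted p = 0.000894). dpr7, on the fourth chromosome, rose to 245, 297 and 288 normalized counts in ADAR hypomorph flies, against 214, 178 and 189 in WT flies (log2 fold change 0.52 ± 0.11, edgeR adjusted p = 0.00258).

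Neuropeptides carry signals between neurons and from the brain to the body. Of 39 tested genes of neuropeptides and their processing, 2 rose and 15 fell (10.2% of all genes tested fell), with a median of -0.23, and 14 fell without WT replicate 2. The insulin-like peptides of the brain's insulin-producing cells were among them. Ilp5 fell to 162, 147 and 179 normalized counts in ADAR hypomorph flies, against 324, 339 and 303 in WT flies (log2 fold change -0.99 ± 0.09, edgeR adjusted p = 6.94e-07). Ilp2 fell to 896, 917 and 864 normalized counts in ADAR hypomorph flies, against 1365, 1357 and 1384 in WT flies (log2 fold change -0.62 ± 0.07, edgeR adjusted p = 1.11e-05). CCHa2, which fat body secretes and which acts on the insulin-producing cells, fell to 628, 550.4 and 650.4 normalized counts in ADAR hypomorph flies, against 976, 993 and 1034 in WT flies (log2 fold change -0.72 ± 0.07, edgeR adjusted p = 1.87e-06). Nplp2, an abundant peptide precursor, fell to 67733, 67593 and 69372 normalized counts in ADAR hypomorph flies, against 106322, 107998 and 117309 in WT flies (log2 fold change -0.70 ± 0.06, edgeR adjusted p = 9.09e-07). For each of them the 3 hypomorph libraries lay below the 3 WT libraries. Nplp3, a neuropeptide-like precursor, was higher, at 35553, 28236 and 30369.6 normalized counts in ADAR hypomorph flies, against 19743, 20707 and 19908 in WT flies (log2 fold change 0.64 ± 0.09, edgeR adjusted p = 7.54e-05).

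Pdf, the peptide by which clock neurons signal to each other, fell to 434, 456 and 503 normalized counts in ADAR hypomorph flies, against 714, 698 and 761 in WT flies (log2 fold change -0.64 ± 0.09, edgeR adjusted p = 8.06e-05), while its receptor Pdfr rose to 240.0, 248 and 268 normalized counts in ADAR hypomorph flies, against 116, 98.3 and 96.3 in WT flies (log2 fold change 1.29 ± 0.10, edgeR adjusted p = 1.52e-07). Pdfr lies on the X chromosome, 87 tested genes from Adar. Of 23 genes of the circadian clock 3 rose and 3 fell (median 0.01). Atx2, a translation regulator of the clock, rose to 866, 882 and 895 normalized counts in ADAR hypomorph flies, against 654, 715 and 588 in WT flies (log2 fold change 0.43 ± 0.08, edgeR adjusted p = 0.00146). nmo, a kinase, rose to 489, 457 and 466 normalized counts in ADAR hypomorph flies, against 384, 361 and 342 in WT flies (log2 fold change 0.38 ± 0.08, edgeR adjusted p = 0.00327). The 3 falls became 1 without hypomorph replicate 2 or replicate 3. The time of day at which heads were collected is not given in the sources used here.

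Flies answer infection mainly in the fat body, where the Toll and Imd pathways switch on antimicrobial peptides. Of 24 tested antimicrobial peptide genes 15 fell (10.2% of all genes tested) and none rose, with a median of -1.08. At an unadjusted p under 0.05 none rose either, and DESeq2 called 15 lower and 0 higher. Drsl4, a drosomycin-like peptide, fell to 118, 111 and 102 normalized counts in ADAR hypomorph flies, against 416, 443 and 366 in WT flies (log2 fold change -1.89 ± 0.12, edgeR adjusted p = 1.23e-08). Drsl5, another of this family, fell to 822, 718 and 869 normalized counts in ADAR hypomorph flies, against 2024, 1909 and 1838 in WT flies (log2 fold change -1.26 ± 0.13, edgeR adjusted p = 3.1e-06). IM4 (daisho), a short peptide induced through Toll, fell to 21393, 24012 and 20736 normalized counts in ADAR hypomorph flies, against 38285, 36297 and 37608 in WT flies (log2 fold change -0.76 ± 0.08, edgeR adjusted p = 6.54e-06). IM14, of the same kind, fell to 8212, 9229 and 8901 normalized counts in ADAR hypomorph flies, against 15195, 14028 and 14322 in WT flies (log2 fold change -0.73 ± 0.10, edgeR adjusted p = 4.72e-05). The libraries of the strains did not overlap for these 4 peptides.

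AttA, Dro and Dpt, all known as targets of the Imd pathway, were picked after their values were seen because their hypomorph libraries lay far apart. AttA, an attacin, had 7.47, 42.8 and 2.9 normalized counts in ADAR hypomorph flies, against 222, 368 and 89.6 in WT flies (log2 fold change -3.58 ± 0.56, edgeR adjusted p = 0.000242). Dro (drosocin) had 135, 824 and 93.6 normalized counts in ADAR hypomorph flies, against 2229.7, 3278 and 1675 in WT flies (log2 fold change -2.75 ± 0.56, edgeR adjusted p = 0.00219). Dpt (diptericin) had 43, 883 and 4.83 normalized counts in ADAR hypomorph flies, against 547, 790.2 and 498 in WT flies (log2 fold change -0.95 ± 0.86, edgeR adjusted p = 0.521). In each, hypomorph replicate 2 stood far above the other hypomorph libraries, and for Dpt it exceeded all WT libraries, so that the strains overlapped. The summed level of the gut markers was also highest in hypomorph replicate 2 among the hypomorph libraries, at 4039 normalized counts, against 728 and 789 in the other hypomorph libraries, and its part in the levels of these peptides was not tested. Of 6 fat body markers 4 were called lower (Yp1, Yp2, Yp3 and fit), while Lsp2 and Fbp1 were not called (log2 fold changes -0.22 and 1.99). The sums, most of which are yolk protein counts, were 312586 to 361609 normalized counts in ADAR hypomorph flies, against 556181 to 583110.0 in WT flies. The part of fat body RNA in the falls of the peptides was not tested. Without hypomorph replicate 2, all 24 peptides were called lower and the median was -2.73. Without WT replicate 2, 13 were called lower and the median was -0.99.

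Of 33 genes of peptidoglycan recognition and immune signalling, 15 fell and 2 rose (median -0.28), and the 2 that rose were PGRP-SC1a and PGRP-SC1b, whose amidases dampen the Imd response. spz, the ligand of Toll, fell to 71.9, 82.4 and 80.1 normalized counts in ADAR hypomorph flies, against 209, 146 and 154 in WT flies (log2 fold change -1.11 ± 0.14, edgeR adjusted p = 2.52e-05). SPE, the protease that cleaves it, fell to 1483, 1615 and 1512 normalized counts in ADAR hypomorph flies, against 2174, 2098 and 2019.7 in WT flies (log2 fold change -0.45 ± 0.06, edgeR adjusted p = 6.15e-05). PGRP-SB1, a secreted amidase, fell to 301, 493 and 309 normalized counts in ADAR hypomorph flies, against 1393, 1443 and 756 in WT flies (log2 fold change -1.70 ± 0.21, edgeR adjusted p = 3.07e-05). PGRP-SD, a recognition protein, fell to 229, 272 and 274 normalized counts in ADAR hypomorph flies, against 443, 520.1 and 453 in WT flies (log2 fold change -0.87 ± 0.12, edgeR adjusted p = 6.91e-05). In all 4 genes the hypomorph libraries lay below those of WT. Of 9 genes of the Turandot family and the JAK/STAT pathway 1 fell (11.1%, against 10.2% of all genes tested). It was the stress peptide TotX, at 133, 148 and 122 normalized counts in ADAR hypomorph flies, against 312, 359 and 339.8 in WT flies (log2 fold change -1.33 ± 0.11, edgeR adjusted p = 4.34e-07).

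**Figure D4:**
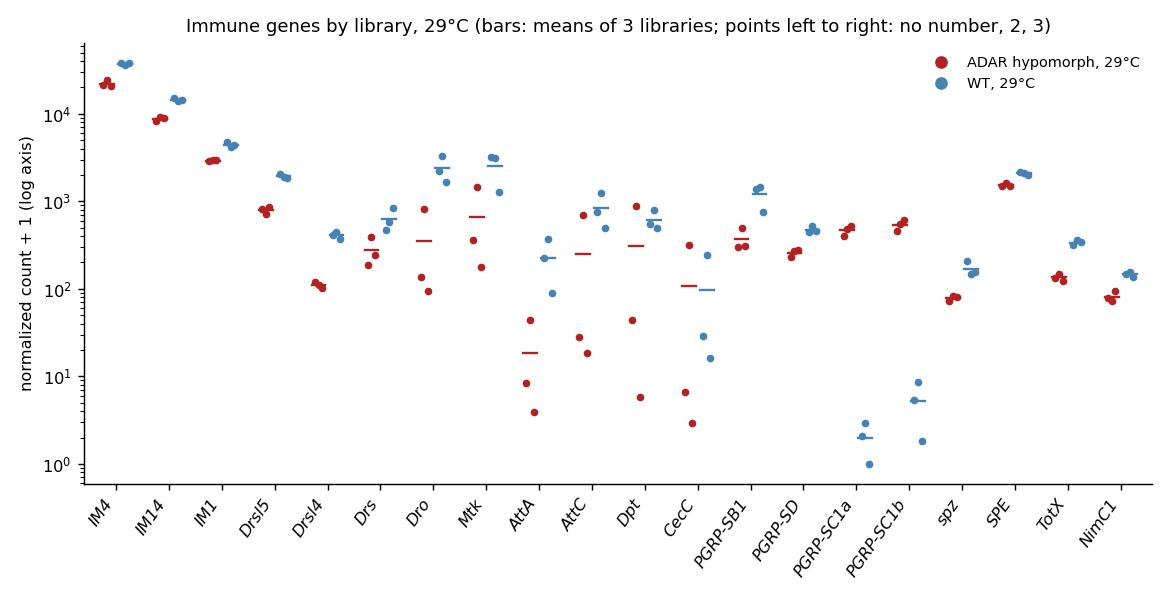
Normalized counts plus 1 (log axis) of 20 immune genes in each library at 29°C, ADAR hypomorph in red on the left and WT in blue on the right of each gene, with points from left to right for the library with no number, replicate 2 and replicate 3, and bars at the means of 3 libraries. In Dro, Mtk, AttA, AttC, Dpt and CecC the middle red point (hypomorph replicate 2) lies high above the other red points, whereas PGRP-SC1a and PGRP-SC1b have red points far above the blue ones.

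Of 29 serpins, lectins, thioester proteins and related factors of the blood, 1 rose and 16 fell (median -0.40). lectin-28C fell to 848, 788 and 776 normalized counts in ADAR hypomorph flies, against 1611, 1721 and 1792 in WT flies (log2 fold change -1.09 ± 0.07, edgeR adjusted p = 1.65e-08). Tep2, a thioester protein that binds microbes, fell to 389, 419 and 447 normalized counts in ADAR hypomorph flies, against 637, 653 and 634 in WT flies (log2 fold change -0.61 ± 0.09, edgeR adjusted p = 0.000122). NimC1, the phagocytosis receptor of plasmatocytes, fell to 77.5, 71.9 and 92.6 normalized counts in ADAR hypomorph flies, against 147, 157 and 137 in WT flies (log2 fold change -0.87 ± 0.13, edgeR adjusted p = 0.000128). The summed level of 4 hemocyte markers was 673, 673 and 709 normalized counts in ADAR hypomorph flies, against 1354, 1349 and 1234 in WT flies, and 3 of them were called lower. Whether hemocyte number has a part in these changes was not tested.

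Cytochrome P450 enzymes oxidise toxins, hormones and lipids. Of 69 cytochrome P450 genes 23 fell and 3 rose (median -0.38), and 20 fell without WT replicate 2. Beside Cyp6a17, Cyp12a4, known for insecticide resistance, fell to 85, 88.1 and 69.5 normalized counts in ADAR hypomorph flies, against 528, 584 and 537 in WT flies (log2 fold change -2.76 ± 0.11, edgeR adjusted p = 1.41e-10). Cyp6a13 fell to 90.6, 97 and 90.7 normalized counts in ADAR hypomorph flies, against 223, 211 and 209 in WT flies (log2 fold change -1.21 ± 0.10, edgeR adjusted p = 2.64e-07). Cyp4e2 fell to 415, 393 and 413 normalized counts in ADAR hypomorph flies, against 732, 721 and 684 in WT flies (log2 fold change -0.81 ± 0.07, edgeR adjusted p = 3.77e-07). None of the 3 overlapped between the strains. Those that rose included Cyp4p1, at 279, 323 and 296 normalized counts in ADAR hypomorph flies, against 199, 131 and 147 in WT flies (log2 fold change 0.92 ± 0.12, edgeR adjusted p = 4.8e-05). Cyp12d1-d, which xenobiotics induce, rose to 324, 306 and 278 normalized counts in ADAR hypomorph flies, against 150.2, 178 and 178 in WT flies (log2 fold change 0.84 ± 0.14, edgeR adjusted p = 0.000402). It is nearly identical to its copy Cyp12d1-p, so that reads may have been divided between them.

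Of 45 glutathione transferases and antioxidant enzymes, 19 fell and 2 rose (median -0.20), and without WT replicate 2 the numbers were 13 and 1. GstE3 fell to 221, 219 and 205 normalized counts in ADAR hypomorph flies, against 387, 437 and 398 in WT flies (log2 fold change -0.92 ± 0.08, edgeR adjusted p = 4.04e-07). GstE6 fell to 519, 554 and 577 normalized counts in ADAR hypomorph flies, against 901, 973 and 879.7 in WT flies (log2 fold change -0.74 ± 0.09, edgeR adjusted p = 1.98e-05). Against this, GstE14, an enzyme of ecdysteroid synthesis, rose to 171, 188 and 161 normalized counts in ADAR hypomorph flies, against 90.3, 93.5 and 105 in WT flies (log2 fold change 0.84 ± 0.12, edgeR adjusted p = 0.000122). All 3 enzymes separated the strains without overlap. Of 8 UDP-glycosyltransferases 2 rose (25.0%, against 8.81% of all genes tested) and 2 fell (25.0%, against 10.2%), counts that rest on single libraries. The rises became 0 without hypomorph replicate 2 and 1 without hypomorph replicate 3, WT replicate 2, WT replicate 3 or the hypomorph library with no number, and the falls became 1 without WT replicate 3. Of 30 heat shock proteins and chaperones 10 fell and 1 rose (median -0.21), and 7 fell without WT replicate 2. Hsc70-3 (BiP), the Hsp70 of the endoplasmic reticulum, fell to 1525, 1379 and 1366 normalized counts in ADAR hypomorph flies, against 2050.2, 2019.5 and 2154 in WT flies (log2 fold change -0.54 ± 0.06, edgeR adjusted p = 1.22e-05). Gp93, the Hsp90 of the same compartment, fell to 753, 804 and 816 normalized counts in ADAR hypomorph flies, against 1072, 1212 and 974 in WT flies (log2 fold change -0.46 ± 0.08, edgeR adjusted p = 0.000829). The small heat shock gene Hsp22 had 157, 181 and 179 normalized counts in ADAR hypomorph flies, against 282, 307 and 292 in WT flies (log2 fold change -0.77 ± 0.12, edgeR adjusted p = 0.00019). The file gives the same counts to the overlapping gene Hsp67Bb, so these are 1 measurement, although the 10 falls count them as separate genes.

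The fat body of the head makes yolk proteins in females. Yp1 had 159108, 146112 and 161197 normalized counts in ADAR hypomorph flies, against 254809, 260811 and 246592 in WT flies (log2 fold change -0.71 ± 0.11, edgeR adjusted p = 0.00027). Yp2 had 100563, 86113 and 105854 normalized counts in ADAR hypomorph flies, against 166228, 153802 and 160527 in WT flies (log2 fold change -0.72 ± 0.12, edgeR adjusted p = 0.000297). Yp3 had 87079, 78286 and 91868 normalized counts in ADAR hypomorph flies, against 157684, 148044 and 145223 in WT flies (log2 fold change -0.81 ± 0.11, edgeR adjusted p = 8.75e-05). All 3 yolk proteins were lower in every hypomorph library than in any WT library. fit, a female-enriched peptide of the fat body, fell to 1068, 1275 and 1208 normalized counts in ADAR hypomorph flies, against 2971, 2925 and 2570.5 in WT flies (log2 fold change -1.25 ± 0.13, edgeR adjusted p = 5.69e-06). Of 16 genes of yolk, sex determination and dosage compensation 4 rose (25.0%, against 8.81% of all genes tested) and 4 fell (25.0%, against 10.2%). Among the rises, roX2, a noncoding RNA of dosage compensation in males, had 264, 307 and 359 normalized counts in ADAR hypomorph flies, against 183, 198 and 217 in WT flies (log2 fold change 0.64 ± 0.17, edgeR adjusted p = 0.0124), and was not called without hypomorph replicate 3 or the WT library with no number. fru, a transcription factor of male courtship circuits, had 134, 108 and 131 normalized counts in ADAR hypomorph flies, against 67.5, 65.9 and 80.4 in WT flies (log2 fold change 0.80 ± 0.14, edgeR adjusted p = 0.000804). The gene to had the smallest adjusted p of the 4 rises (log2 fold change 0.94 ± 0.15, edgeR adjusted p = 0.000205). roX1 was not called, at 2174, 2942 and 2868 normalized counts in ADAR hypomorph flies, against 2932, 3209 and 3760 in WT flies (log2 fold change -0.31 ± 0.20, edgeR adjusted p = 0.347). Nor were msl-1, msl-2, msl-3 and mof called. The share of males in the sampled heads is not given, and its part in these values was not tested. Without the WT library with no number 2 of the 4 rises were called.

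Of 12 larval serum and fat body proteins 3 fell (25.0%, against 10.2% of all genes tested), with a median of -0.17. Besides fit these were the lipoprotein precursor Rfabg (apolipophorin), at 11539.8, 11540.3 and 12089 normalized counts in ADAR hypomorph flies, against 16885, 17362 and 16701 in WT flies, and Mtp, which loads lipid onto it. Mtp had 351, 327 and 341 normalized counts in ADAR hypomorph flies, against 588, 629 and 568 in WT flies (log2 fold change -0.81 ± 0.08, edgeR adjusted p = 1.68e-06). The summed level of 6 fat body markers was 349152, 312586 and 361609 normalized counts in ADAR hypomorph flies, against 583110.0, 567036 and 556181 in WT flies, and 4 of the 6 were called lower. These 4 were Yp1, Yp2, Yp3 and fit, and the yolk proteins made up most of the sums. Lsp2 and Fbp1 were not called (log2 fold changes -0.22 and 1.99). Of 14 genes of fatty acid desaturation and lipid storage 4 fell (28.6%, against 10.2% of all genes tested) and 1 rose (7.14%, against 8.81%). Their median was -0.18. Acsl, which activates long-chain fatty acids, fell to 1543, 1592 and 1633 normalized counts in ADAR hypomorph flies, against 2309, 2131 and 2278 in WT flies (log2 fold change -0.49 ± 0.06, edgeR adjusted p = 2.74e-05). mdy, the DGAT1 enzyme that completes triglyceride synthesis, fell to 295, 261 and 276 normalized counts in ADAR hypomorph flies, against 360.2, 399 and 413 in WT flies (log2 fold change -0.50 ± 0.09, edgeR adjusted p = 0.00112). Without the hypomorph library with no number 2 of the 4 falls were called. Tret1-1, a trehalose transporter, fell to 1709, 1713 and 1693 normalized counts in ADAR hypomorph flies, against 2389, 2130.2 and 2274 in WT flies (log2 fold change -0.41 ± 0.06, edgeR adjusted p = 0.000103). Pgi, a glycolytic isomerase, rose to 5544, 5429 and 5368 normalized counts in ADAR hypomorph flies, against 4306, 4208 and 3969 in WT flies (log2 fold change 0.39 ± 0.05, edgeR adjusted p = 3.63e-05). They were the only called members of 22 genes of glycolysis and trehalose, 4.55% in each direction, below the 8.81% and 10.2% of all genes tested. The amylases Amy-p and Amy-d, near-identical copies whose reads may be mixed, both fell, Amy-p to 226, 304 and 286 normalized counts in ADAR hypomorph flies, against 823, 1110.0 and 881 in WT flies (log2 fold change -1.79 ± 0.13, edgeR adjusted p = 6.84e-08).

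Of 26 muscle contractile genes 8 rose (30.8%, against 8.81% of all genes tested) and none fell (median 0.22). At an unadjusted p under 0.05, 1 was lower, and DESeq2 called 12 higher and 0 lower. Mlc1, a myosin light chain, had 3895, 3350.2 and 3317 normalized counts in ADAR hypomorph flies, against 2505, 2422 and 2311 in WT flies (log2 fold change 0.55 ± 0.08, edgeR adjusted p = 0.000121). Tm1, a tropomyosin, had 4132, 3409 and 3981 normalized counts in ADAR hypomorph flies, against 2999, 2819 and 2861 in WT flies (log2 fold change 0.41 ± 0.07, edgeR adjusted p = 0.000766). Act88F, the actin of indirect flight muscle, had 93.4, 40.4 and 78.2 normalized counts in ADAR hypomorph flies, against 27.2, 21 and 21.8 in WT flies (log2 fold change 1.59 ± 0.32, edgeR adjusted p = 0.00208). The rises became 5 without the hypomorph library with no number. Of 49 cuticle proteins 6 rose (12.2%, against 8.81% of all genes tested) and 9 fell (18.4%, against 10.2%), and 6 fell without WT replicate 2 or the hypomorph library with no number. Cpr72Ec rose to 2376, 3245 and 3212 normalized counts in ADAR hypomorph flies, against 421, 369 and 414 in WT flies (log2 fold change 2.87 ± 0.14, edgeR adjusted p = 1.35e-09), the largest change of the list. Acp1, an adult cuticle protein, rose to 4537, 2815 and 4345 normalized counts in ADAR hypomorph flies, against 1482, 1896 and 1425 in WT flies (log2 fold change 1.28 ± 0.20, edgeR adjusted p = 0.000228). Acp65Aa, another adult cuticle protein, fell to 79.4, 55 and 83 normalized counts in ADAR hypomorph flies, against 219.8, 180.4 and 166 in WT flies (log2 fold change -1.38 ± 0.24, edgeR adjusted p = 0.000532). The strains separated fully for all 3 cuticle genes. Of 29 genes of juvenile hormone and ecdysone, 2 rose (6.9%, against 8.81% of all genes tested) and 3 fell (10.3%, against 10.2%). Jheh1, an epoxide hydrolase that degrades juvenile hormone, fell to 289.5, 303 and 267 normalized counts in ADAR hypomorph flies, against 449, 458 and 475 in WT flies (log2 fold change -0.68 ± 0.08, edgeR adjusted p = 1.11e-05).

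Odorant binding proteins are secreted into the fluid of the sensory hairs, where they carry odorants. Of 35 tested, 16 fell (10.2% of all genes tested) and 2 rose (median -0.27), and 13 fell without WT replicate 2. Obp56a fell to 329.7, 312 and 363 normalized counts in ADAR hypomorph flies, against 1091, 1132 and 1001 in WT flies (log2 fold change -1.68 ± 0.10, edgeR adjusted p = 6.56e-09). Obp56d fell to 2057, 2039 and 2041 normalized counts in ADAR hypomorph flies, against 3973, 4012 and 3636 in WT flies (log2 fold change -0.92 ± 0.06, edgeR adjusted p = 5.85e-08). Obp56e, a neighbour in the same cluster, fell to 7268, 5314 and 6806 normalized counts in ADAR hypomorph flies, against 15657, 17408 and 15152 in WT flies (log2 fold change -1.31 ± 0.12, edgeR adjusted p = 1.31e-06). Obp47b fell to 4.67, 7.27 and 4.83 normalized counts in ADAR hypomorph flies, against 65.3, 74.4 and 72.8 in WT flies (log2 fold change -3.62 ± 0.28, edgeR adjusted p = 1.86e-07). Obp8a, on the X chromosome, rose to 351, 351 and 360.0 normalized counts in ADAR hypomorph flies, against 140.4, 143 and 147 in WT flies (log2 fold change 1.3 ± 0.10, edgeR adjusted p = 2.06e-07). In all 5 genes the ranges of the strains were apart. Only 14 of the 143 olfactory, gustatory and ionotropic receptor genes in the table had enough counts to be tested. Of these 3 fell (2 when any 1 library was left out) and none rose, also none at an unadjusted p under 0.05 or by DESeq2. Or45b, an odorant receptor, fell to 0.934, 3.23 and 3.86 normalized counts in ADAR hypomorph flies, against 12, 12.4 and 14.2 in WT flies (log2 fold change -2.21 ± 0.46, edgeR adjusted p = 0.0026). Snmp2, a membrane protein of sensory support cells, fell to 68.2, 67.1 and 70.4 normalized counts in ADAR hypomorph flies, against 114, 120.3 and 93.7 in WT flies (log2 fold change -0.67 ± 0.16, edgeR adjusted p = 0.00673).

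Among the general machinery of the cell, most changes were small. The 83 cytosolic ribosomal protein genes had a median of -0.15, 81 were below 0, and 14 were called lower and none higher. This count moved with the fit, to 54 in a fit of the 2 groups at 29°C alone, to 27 with DESeq2 and to between 5 and 9 when any of the 6 libraries was left out (5 without WT replicate 2), while none was called higher in these fits or at an unadjusted p under 0.05. RpS21 fell to 17003, 17166 and 16957 normalized counts in ADAR hypomorph flies, against 22549.8, 23850.4 and 23047 in WT flies (log2 fold change -0.44 ± 0.06, edgeR adjusted p = 3.6e-05). RpLP1, a protein of the ribosomal stalk, fell to 30546, 31979.6 and 29459.6 normalized counts in ADAR hypomorph flies, against 39366, 41817 and 40508 in WT flies (log2 fold change -0.40 ± 0.06, edgeR adjusted p = 0.000235). Of 34 translation factors 6 fell (17.6%, against 10.2% of all genes tested) and 1 rose (2.94%, against 8.81%). Only 3 fell when WT replicate 2, the WT library with no number, hypomorph replicate 3 or the hypomorph library with no number was left out. Ef1gamma fell to 11026, 11192 and 10799.7 normalized counts in ADAR hypomorph flies, against 15080.4, 15423 and 14908 in WT flies (log2 fold change -0.46 ± 0.07, edgeR adjusted p = 0.000115). Ef1alpha100E, another gene for elongation factor 1 alpha, rose to 5624, 5439 and 5353 normalized counts in ADAR hypomorph flies, against 3512, 3624 and 3603 in WT flies (log2 fold change 0.61 ± 0.06, edgeR adjusted p = 8.48e-07).

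Of 73 mitochondrial ribosomal proteins 4 rose (5.48%) and 1 fell (1.37%), and of 68 respiratory chain subunits 6 rose (8.82%) and 1 fell (1.47%). Of 33 proteasome genes 1 fell (3.03%). These shares were near or below those of all genes tested, of which 8.81% rose and 10.2% fell. The rises of the mitochondrial ribosomal proteins became 2 without the hypomorph library with no number, hypomorph replicate 3 or the WT library with no number, and those of the respiratory chain became 3 without the hypomorph library with no number or WT replicate 2. ND-13B, a subunit of complex I, rose to 1605, 1446 and 1407 normalized counts in ADAR hypomorph flies, against 935, 927 and 968 in WT flies (log2 fold change 0.66 ± 0.07, edgeR adjusted p = 4.46e-06). The proteasome gene was Prosalpha1, at 779, 855 and 738 normalized counts in ADAR hypomorph flies, against 2534, 2685 and 2498 in WT flies (log2 fold change -1.70 ± 0.09, edgeR adjusted p = 1.35e-09). Its row in the table is the same as that of CG30382, and it overlaps phr, so its reads cannot be assigned to 1 gene. Of 20 subunits of the vacuolar proton pump 1 rose and 2 fell. Vha100-1, the subunit of synaptic terminals, fell to 339, 329.8 and 297 normalized counts in ADAR hypomorph flies, against 834, 758 and 793 in WT flies (log2 fold change -1.30 ± 0.08, edgeR adjusted p = 1.65e-08). Of 228 tested genes with CR names, mostly noncoding, 19 rose (8.33%, against 8.81% of all genes tested) and 18 fell (7.89%, against 10.2%). CR45997 rose to 276, 382 and 266 normalized counts in ADAR hypomorph flies, against 19.6, 42 and 32.6 in WT flies (log2 fold change 3.28 ± 0.23, edgeR adjusted p = 6.84e-08). CR45115 fell to 22.4, 27.5 and 24.1 normalized counts in ADAR hypomorph flies, against 121, 109 and 116 in WT flies (log2 fold change -2.21 ± 0.19, edgeR adjusted p = 4.41e-07). Both were separated between the strains. Of 4 tested Osiris genes Osi2 rose, to 303, 322 and 309.8 normalized counts in ADAR hypomorph flies, against 171, 169.9 and 188 in WT flies (log2 fold change 0.82 ± 0.15, edgeR adjusted p = 0.000763). Small counts in other lists also moved when 1 library was left out. Neuropeptides had 1 rise in place of 2 without hypomorph replicate 2 or 3, WT replicate 2 or the WT library with no number. The same held for odorant binding proteins without WT replicate 2 or 3 or either library with no number, and for glutathione transferases and antioxidant enzymes in each such fit except that without the WT library with no number. For juvenile hormone and ecdysone 1 rise was called without WT replicate 2 or the WT library with no number. The single rise among chaperones was lost in 4 of the 6 fits with 1 library left out, and the single rises among serpins and related factors and among lipid genes, and the single fall in the respiratory chain, in 3 each.

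WT replicate 2 decided the calls of a group of genes. Of the 65 genes over 4-fold higher in it than in both other WT libraries, 6 were called higher, 17 lower and 42 not called. Without it 19 were called higher and 7 lower. The following genes were picked after their values were seen. CG1678 had 13785, 16028 and 15112 normalized counts in ADAR hypomorph flies, against 43.5, 2586 and 11.7 in WT flies, and it was called only when WT replicate 2 was left out. In 15 of the 65 genes, CG1678 among them, each hypomorph library was over 10-fold above both other WT libraries. Of these 15 genes 6 were called, and all 15 were called higher without WT replicate 2. CG16826 had 3952, 3632 and 3439 normalized counts in ADAR hypomorph flies, against 13.1, 965 and 0 in WT flies. CG13947, 1 of the named rises, had 1101, 2309 and 1686 normalized counts in ADAR hypomorph flies, against 4.35, 349 and 0.837 in WT flies (log2 fold change 3.85 ± 1.05, edgeR adjusted p = 0.0168), and without WT replicate 2 its log2 fold change was 9.41. Its call was lost without WT replicate 3 or the WT library with no number, which left WT replicate 2 with 1 other library. In 14 of the 15 genes, replicate 3 of the hypomorph at 18°C was also over 10-fold above both other hypomorph libraries at 18°C. CG1678 at 18°C had 6.79, 3.46 and 2998 normalized counts in ADAR hypomorph flies, against 6.1, 25.4 and 9.11 in WT flies.

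The lysozyme LysP, of the salivary gland, had 502, 208 and 491 normalized counts in ADAR hypomorph flies, against 2.18, 109 and 0 in WT flies (log2 fold change 3.43 ± 1.10, edgeR adjusted p = 0.0393), and 8.54 was its log2 fold change without WT replicate 2. It was not called when 1 of 4 other libraries was left out (the library with no number or replicate 3 of either strain). LysE, a lysozyme of the midgut picked for its reversal, had 15.9, 11.3 and 18.3 normalized counts in ADAR hypomorph flies, against 10.9, 1584 and 2.51 in WT flies (log2 fold change -5.14 ± 1.44, edgeR adjusted p = 0.0193), and without WT replicate 2 its log2 fold change was 1.24. Cyp4g1, the P450 that makes cuticular hydrocarbons, also reversed, with 17.7, 149.5 and 119 normalized counts in ADAR hypomorph flies, against 82.7, 2406 and 46 in WT flies (log2 fold change -3.13 ± 1.04, edgeR adjusted p = 0.0479) and a log2 fold change of 0.59 without that library. These 2 were the only calls of 1818 to change sign, and neither was called in either direction without WT replicate 2. Of 21 tested digestive proteases, lysozymes and carbohydrases, 1 rose and 6 fell with a median of -1.03, but 5 rose and 4 fell with a median of 2.21 without WT replicate 2. Without hypomorph replicate 2 the numbers were 1 and 13, with a median of -3.03. No direction can be read for this list.

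CG18628 had 10.3, 13.7 and 9.65 normalized counts in ADAR hypomorph flies, against 78.4, 6053 and 22.6 in WT flies (log2 fold change -7.48 ± 1.62, edgeR adjusted p = 0.00349), which became -2.12 without WT replicate 2. Met75Ca, a male accessory gland gene that shares nearly all its reads with Met75Cb, had 27.1, 29.9 and 6.76 normalized counts in ADAR hypomorph flies, against 209, 2649 and 46.9 in WT flies (log2 fold change -5.47 ± 1.20, edgeR adjusted p = 0.00373), and its log2 fold change was -2.52 without WT replicate 2. Sfp87B, a seminal fluid protein, had 2.8, 0 and 1.93 normalized counts in ADAR hypomorph flies, against 35.9, 229 and 10.9 in WT flies (log2 fold change -5.82 ± 1.25, edgeR adjusted p = 0.00327), against -3.81 without that library. EbpII, a protein of the ejaculatory bulb, had 0.934, 3.23 and 0 normalized counts in ADAR hypomorph flies, against 38.1, 230.0 and 10.9 in WT flies (log2 fold change -5.85 ± 1.17, edgeR adjusted p = 0.00182), against -3.89 without it. All 4 remained called, and in each the WT library with no number was also above the 3 hypomorph libraries. Of 65 seminal and male reproductive genes 11 were tested and 7 fell, and none rose at an unadjusted p under 0.05 or by DESeq2. The 7 became 2 without WT replicate 2, 3 without hypomorph replicate 3 and 4 without the hypomorph library with no number. CG14273, Cyp6a17 and beat-Ib, by contrast, had 0, 77.3 and 86.9 normalized counts in WT replicate 2, close to the other WT libraries. The part of gut and male tract RNA in these values, whose marker sums are given with the library totals, was not tested.

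**Figure D5:**
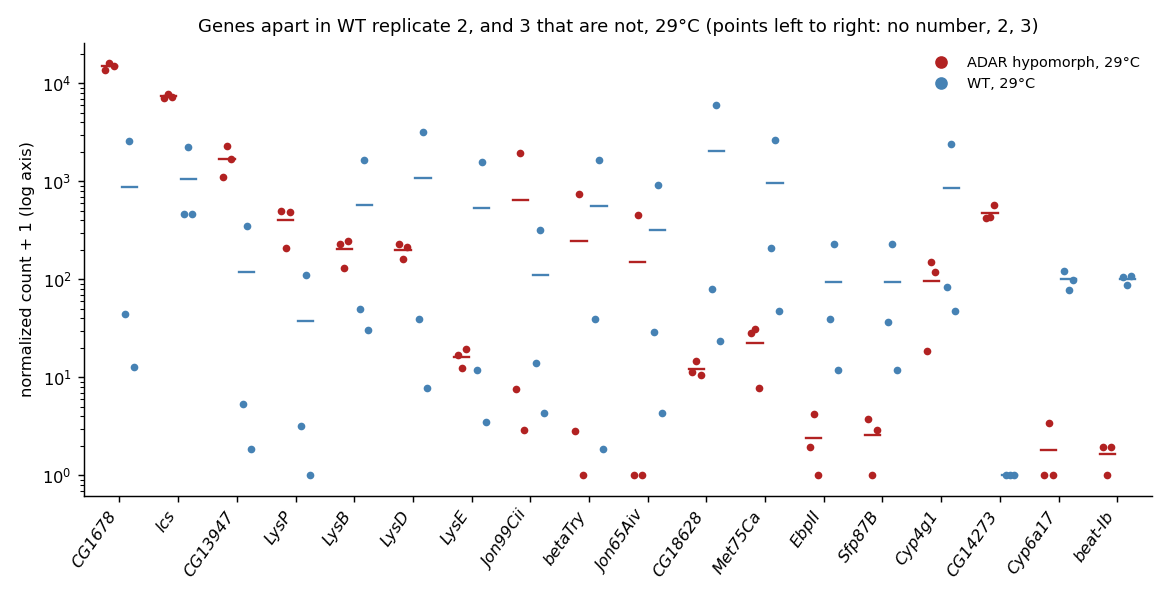
Normalized counts plus 1 (log axis) in each library at 29°C of 15 genes chosen because WT replicate 2 stood apart and of CG14273, Cyp6a17 and beat-Ib, where it did not, ADAR hypomorph in red on the left and WT in blue on the right of each gene, with points from left to right for the library with no number, replicate 2 and replicate 3. The middle blue point lies far above the other blue points from CG1678 to Cyp4g1, and the 3 genes at the right have 3 blue points close together.

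At 18°C, 2500 genes were called between the strains, 1109 of them (11.6%) above WT and 1391 (14.6%) below WT in the hypomorph. Of these, 1222 were called at 29°C in the same direction, which is 67.2% of the calls at 29°C and 48.9% of those at 18°C, and 28 in the opposite direction. The libraries at the 2 temperatures are separate, but all come from the same 2 strains. At 18°C 26 of the 30 rhodopsin and phototransduction genes rose, with a median of 0.95, and in the interaction test of edgeR no member passed (7 at an unadjusted p under 0.05, 1 by DESeq2). The log2 fold change of ninaE was 2.56 at 29°C and 2.60 at 18°C, and those of w were 3.59 and 3.69.

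The strain effect itself differed between 29°C and 18°C for 222 genes (2.32%) by edgeR's interaction test, 139 of them called at 29°C. In the 8 numbered libraries the test gave 77 genes with the replicate number as a block and 69 without it, and with 1 library at 18°C left out it gave 172 to 214 (190 without hypomorph replicate 3 at 18°C). Of these 139 the effect was more positive at 29°C for 92 and more negative for 47. Muscle, glycolysis and fat body genes had such members. Of the 26 muscle genes, 8 rose at 29°C and 10 fell at 18°C, and 7 passed the interaction test. For Mlc1 the strain effect was 0.55 on the log2 scale at 29°C, beside -0.07 at 18°C. Of 22 genes of glycolysis and trehalose 16 fell at 18°C, and 7 passed the interaction test. Of the 12 larval serum and fat body proteins 11 fell at 18°C with a median of -1.62, and 8 passed the interaction test. In the 8 numbered libraries, with or without the block, 5 muscle genes, 1 gene of glycolysis and trehalose and 3 of the fat body proteins passed it. DESeq2 gave 13, 12 and 7 for these lists, and without WT replicate 3 at 29°C 4 of the glycolysis and trehalose genes passed. For the yolk proteins the log2 fold changes at 29°C were -0.71, -0.72 and -0.81 for Yp1, Yp2 and Yp3, and at 18°C they were -1.78, -1.98 and -1.88. Drsl4 went the other way, with -1.89 at 29°C and -1.15 at 18°C. Cpr72Ec rose at 29°C (2.87) and fell at 18°C (-0.72). Its level at 18°C was 210.4, 219 and 318 normalized counts in ADAR hypomorph flies, against 447, 394 and 398 in WT flies.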

How the data were processed

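Heads of ADAR hypomorph and WT flies at 29°C were profiled by 3' RNA-seq. For each of 15423 genes the authors deposited a raw count of reads, a whole number with no normalization, made with ESAT after TopHat alignment to dm3. Versions of these tools are not given in the sources used here. The study tested genes with DESeq, and whether its p-value limit was adjusted is not stated. The table also has 4 columns of another temperature that match no sample given here, and they were left out. In each group 1 column without a number served as a further replicate. Nothing says that replicates came from separate cultures, so p-values measure the spread between these samples, which may be technical.

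Genes were kept by filterByExpr of edgeR 4.0.16 in R 4.3.3 (minimum count 10), which left 9553 of the 14611 genes with a count. All 12 libraries in 4 groups were fitted in 1 quasi-likelihood model after TMM scaling, with the Benjamini-Hochberg adjustment over all genes tested. The biological coefficient of variation was 12.9%. Alternatives were DESeq2 1.42.0, its size factors within edgeR, other filters on low counts, a fit of the 2 groups at 29°C, the 8 numbered libraries with and without the replicate number as a block, leaving out each library at 29°C and, for the interaction test, a choice made after the data were seen, leaving out each library at 18°C.

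The named genes are Adar, w, the 12 called genes that rose most and the 12 that fell most (group mean of 10 or more normalized counts, no overlap), and up to 4 called members per direction of each list, by adjusted p. The members and lists were chosen with earlier results of these data known. Genes are named as in the table. PCR copies are not independent, so counting intervals cover counting error only. Chromosomes are those of the deposited table. A RefSeq gene table of another build (Release 6 plus ISO1 MT) gave only the order of genes on the X chromosome, where 1568 of 1569 tested genes matched by name.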

Additional observations from a re-analysis of the deposited data

Results flagged for a closer look

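The strain effect of 30 of the genes that the naming rule picks differed between the temperatures by edgeR's interaction test (adjusted p under 0.05 over 9553 genes). That rule uses the strain contrast at 29°C, which is also a term of the difference tested. It favours genes with a clear strain effect at 29°C, so the directions below describe these genes only. Each value below is the log2 fold change of ADAR hypomorph over WT flies at 29°C minus that at 18°C, so that a positive value means a strain effect that was more positive at 29°C.

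Among genes of the fat body the differences were 1.57 for fit, 1.07 for Yp1, 1.26 for Yp2, 1.07 for Yp3, 0.42 for Rfabg and 0.44 for FASN1, a fatty acid synthase. The 6 fitted effects were below 0 at both temperatures and nearer 0 at 29°C. FASN1 was called at 29°C with a log2 fold change of only -0.21, and this call was lost in each fit with 1 library at 29°C left out except the fit without WT replicate 3. For muscle genes the difference was 0.62 for Mlc1, 0.61 for Tm1 and 0.58 for Prm (paramyosin). In metabolism it was 0.61 for Pgi, 0.57 for ND-13B and 0.38 for Cyt-c1 (cytochrome c1), whose call at 29°C was lost without WT replicate 2 or the hypomorph library with no number. Nplp3 differed by 0.79.

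The flagged immune genes were more negative at 29°C, by -0.74 for Drsl4, -0.71 for Drsl5, -0.90 for PGRP-SD, -0.90 for lectin-28C and -0.79 for TotX. Few members of their lists passed the interaction test. These were 2 of 24 antimicrobial peptides, 1 of 33 genes of peptidoglycan recognition and immune signalling, 1 of 29 serpins and related factors, and 1 of 9 Turandot and JAK/STAT genes. The amylases had -1.05 for Amy-p and -1.03 for Amy-d. Obp56d had -0.43. Hsp22 had -0.87, and Hsp67Bb, which shares its counts, had -0.87 as well, so the pair is a single measurement. CG1722 had -4.13, a fitted value that rests on 3 counts in the hypomorph at 29°C.

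The cuticle genes went both ways, with 3.59 for Cpr72Ec, 1.51 for Acp1 and -2.24 for Ccp84Ag. Among P450 genes Cyp12a4 had 3.03 and Cyp12d1-d had 1.52. The noncoding gene CR45046 had 1.58. When 1 library at 18°C was left out, 25 to 30 of these genes still passed the interaction test, and FASN1 and Drsl5 failed it in 3 of those fits each. The causes were not tested.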

How the results depend on the processing

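The count of called genes was 1818, and it ranged from 1400 to 1531 when 1 library at 29°C was left out, with 627 to 685 higher, 755 to 861 lower, 465 to 523 by the fold criterion, 154 to 214 in the interaction test (libraries at 18°C included, a choice made after the data were seen) and 307 to 360 called list members. DESeq2 called 1710 genes and the fit of the 2 groups at 29°C 1957. The fold criterion depended on the filter, with 829 genes when all genes with at least 1 count were tested and 205 when at least 10 counts were required in every library, against 451. A replicate block could be fitted in the 8 numbered libraries, where 1225 genes were called, 523 of them higher against 842, and the interaction test gave 77 genes against 222. The same 8 libraries without the block, an alternative chosen after the data were seen, gave 1233, 542 and 69. Same-numbered libraries had correlations of their deviations of 0.234 and 0.232, other pairs -0.302 to 0.146. With only 2 numbered pairs the numbers were not treated as a pairing. Of the 200 genes that the naming rule picks 148 were called in each of the 13 alternatives that tested them, 52 were lost in at least 1, 27 of them without WT replicate 2, and none reversed. LysE and Cyp4g1, named outside the rule, did change sign without WT replicate 2, at log2 fold changes of 1.24 and 0.59, against -5.14 and -3.13 with it. Neither was called without that library. Genes near the filter are limited by depth.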
